A study of Homo sapiens with 8 samples.

Results

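The circadian clock genes examined here were PER1, PER2, PER3, CRY1, CRY2, NR1D1, NR1D2, BHLHE40, DBP and CLOCK. They were chosen by symbol from the platform annotation, and where a symbol had several rows the row with the highest mean over the 8 arrays was taken. All 10 genes had a row among the 17881 transcript clusters of the table. The cells are labelled RS4;11, an established line from a leukemia of B-cell precursors, and were profiled on Affymetrix exon arrays. There were 4 groups of 2 arrays: BTG1 shRNA with prednisolone, BTG1 shRNA with vehicle, control shRNA with prednisolone and control shRNA with vehicle. Every group was exposed for 8 h, prednisolone is a synthetic glucocorticoid, and BTG1 belongs to a family of antiproliferative proteins. The study asked how loss of BTG1 changes the response to prednisolone. All cells carried a vector, and the labels do not say whether a transduced line was 1 clone or a pool. The 2 arrays of a group are not said to come from separate cultures. Each limma p-value sets a group difference against the spread of arrays within groups, pooled over the groups fitted, and that spread may be technical.

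The arrays labelled BTG1 shRNA stood apart in lineage from the control arrays. The mean log2 level of 9 T-cell markers was 8.76 to 8.91 on the prednisolone arrays and 8.97 to 9.06 on the vehicle arrays labelled BTG1 shRNA. On the control arrays it was 4.20 to 4.30 with prednisolone and 4.43 to 4.93 with vehicle. The mean of 8 B-lineage markers ran the other way, at 4.02 to 4.31 on the 4 arrays labelled BTG1 shRNA and 8.82 to 9.58 on the 4 control arrays. The B-lineage genes CD79A, EBF1 and PAX5, which define the labelled cell type, were lower with BTG1 shRNA under vehicle, with log2 differences of -5.03, -5.93 and -5.74. Cell lineage and shRNA therefore cannot be told apart in any comparison between the shRNAs, and the vector names are used below only as labels. The transcript cluster of BTG1 and LINC01619 read 8.14 and 7.80 with prednisolone and 7.15 and 7.42 with vehicle under BTG1 shRNA, against 10.51 and 10.70 with prednisolone and 9.34 and 9.36 with vehicle under control shRNA. NR3C1, which encodes the glucocorticoid receptor, read 7.25 and 7.25 with prednisolone and 7.77 and 7.12 with vehicle under BTG1 shRNA, against 10.63 and 10.90 with prednisolone and 9.72 and 10.24 with vehicle under control shRNA.

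The clock is a transcriptional feedback loop. CLOCK pairs with BMAL1 and the pair binds E-boxes, short DNA elements in or near the PER, CRY, NR1D, DBP and BHLHE40 genes. PER and CRY proteins then repress that pair, while the nuclear receptors REV-ERB alpha and beta (NR1D1 and NR1D2) repress BMAL1 and the ROR receptors activate it. Glucocorticoids act as a timing signal for clocks outside the brain, and PER1 is a known direct target of the glucocorticoid receptor.

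Values are log2 expression levels, and a probe's brightness depends on its sequence, so levels are compared between arrays and never between genes. A gene was called when its limma p-value, adjusted by Benjamini-Hochberg over all 17881 clusters, was below 0.05. Each comparison has 2 arrays a side, which limits its precision.

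**Figure D1:**
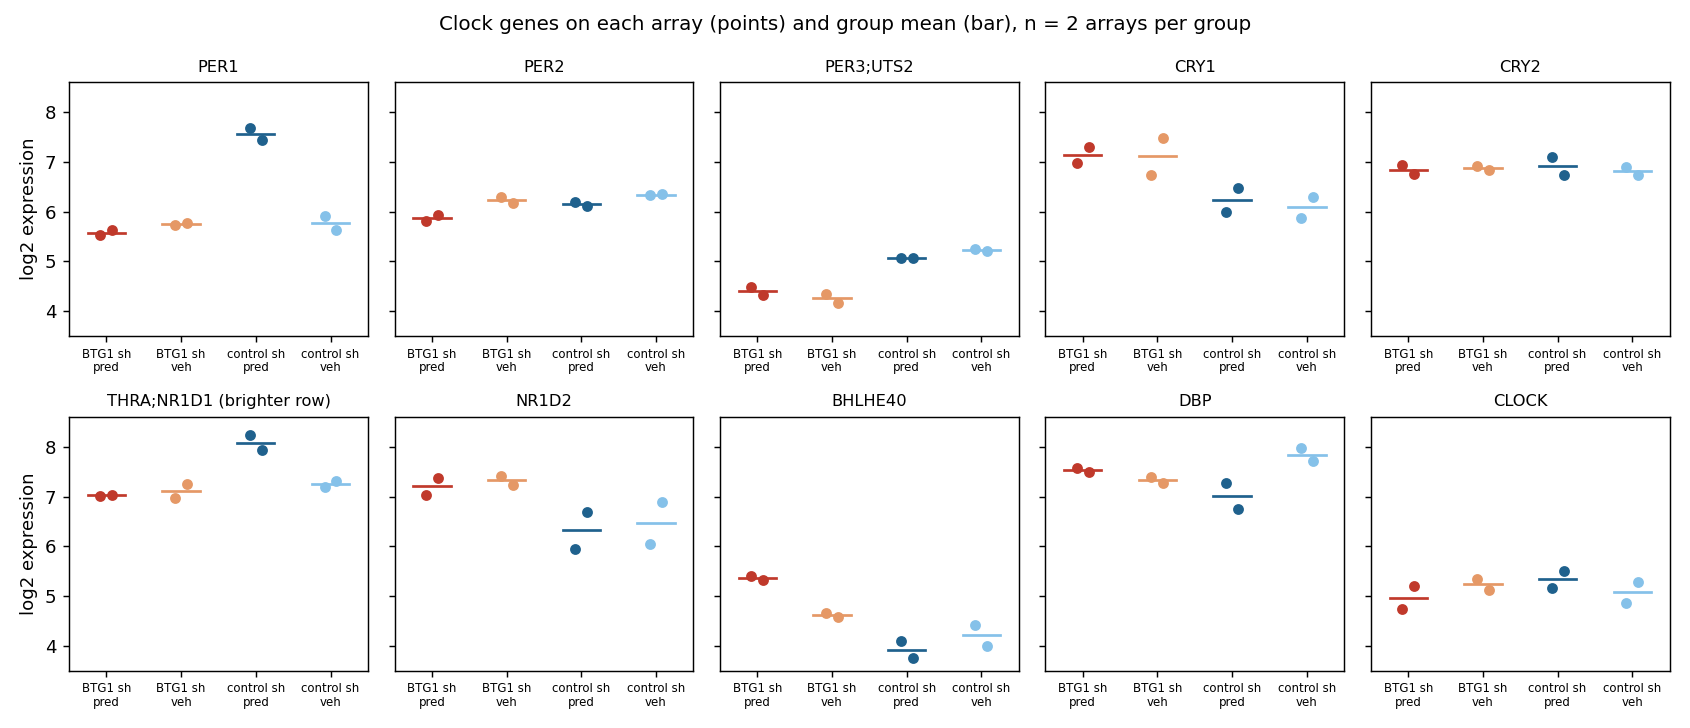
Log2 expression (vertical axis) of the 10 clock genes on each of the 8 arrays, with 1 point per array and a bar at the mean of 2 arrays. PER1 stands at 7.69 and 7.44 on the control prednisolone arrays and between 5.52 and 5.91 on the other 6. PER3 is lower and BHLHE40 higher with prednisolone on the arrays labelled BTG1 shRNA than on the control arrays.

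PER1, a repressor of the CLOCK and BMAL1 pair and an early responder to timing signals, was the clock gene that rose with prednisolone in control shRNA cells. Its cluster read 7.69 and 7.44 on the control prednisolone arrays, against 5.91 and 5.62 on the control vehicle arrays. The prednisolone arrays were high and the groups did not overlap. The means were 7.57 ± 0.17 with prednisolone and 5.77 ± 0.21 with vehicle (SD, n = 2 each). The difference was 1.80 on the log2 scale (SE 0.19, 95% interval 1.36 to 2.24, 3.48-fold, limma adjusted p = 0.00661). In a bulk sample, more cells that express a gene and more RNA per cell cannot be told apart. Among all clusters 115 had a larger difference in size in this comparison. PER1 was the only call among the 10 clock genes, beside 1.52% of all clusters called in either direction. By the study's own rule, a change over 2-fold with prednisolone, PER1 was 1 of 10 in control cells, beside 5.26% of all clusters. The call ended without the second control prednisolone array (difference 1.92, limma adjusted p = 0.0535), and also when the arrays labelled BTG1 shRNA were kept out of the fit, which leaves the difference as it is (adjusted p = 0.0759).

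On the arrays labelled BTG1 shRNA, PER1 read 5.52 and 5.62 with prednisolone, against 5.73 and 5.77 with vehicle. All 4 of these arrays lay within the range of the control vehicle arrays or just below it. The difference was -0.18 (SE 0.19, 95% interval -0.62 to 0.26, limma adjusted p = 1.0). The prednisolone difference on the arrays labelled BTG1 shRNA minus that on the control arrays was -1.98 (SE 0.27, limma adjusted p = 0.066), which missed the threshold. Centring each array on its median moved it to -2.15 (adjusted p = 0.0344), past the threshold. NR3C1 was lower on these arrays, with the values given above, and its part in the PER1 result was not tested. TSC22D3, a gene known to be induced by glucocorticoids, read 5.31 and 5.14 with prednisolone, against 4.29 and 4.18 with vehicle, on the arrays labelled BTG1 shRNA, without overlap. Its difference there was 0.99 (SE 0.17, unadjusted p = 0.000458, limma adjusted p = 1.0), and it was not called.

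The promoters of PER1, PER2 and BHLHE40 are shown because PER1 rose in control cells, its paralogue PER2 was not called in any comparison, and BHLHE40 is a member called higher between the shRNAs. The sequences are the 250 bases before the start of each gene in RefSeq (GRCh38.p14), on the gene's own strand, 5′ to 3′. They lie at chr17:8152405-8152654 (minus strand) for PER1, chr2:238288611-238288860 (minus strand) for PER2 and chr3:4979187-4979436 (plus strand) for BHLHE40. Capitals mark the E-box CACGTG, its variant CACGTT, the core of ROR sites AGGTCA, which reads TGACCT on the other strand, and the glucocorticoid half-site AGAACA.
PER1: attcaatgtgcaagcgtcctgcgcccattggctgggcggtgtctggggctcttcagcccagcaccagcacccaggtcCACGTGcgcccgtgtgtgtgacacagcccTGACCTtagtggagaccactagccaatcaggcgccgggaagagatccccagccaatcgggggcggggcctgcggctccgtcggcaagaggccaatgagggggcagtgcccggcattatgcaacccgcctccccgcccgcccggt
PER2: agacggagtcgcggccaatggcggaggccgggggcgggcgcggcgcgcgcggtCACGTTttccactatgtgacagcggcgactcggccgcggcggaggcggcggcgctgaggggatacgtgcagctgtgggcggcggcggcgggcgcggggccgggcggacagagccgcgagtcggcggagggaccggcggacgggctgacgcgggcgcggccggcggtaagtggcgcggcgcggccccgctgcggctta
BHLHE40: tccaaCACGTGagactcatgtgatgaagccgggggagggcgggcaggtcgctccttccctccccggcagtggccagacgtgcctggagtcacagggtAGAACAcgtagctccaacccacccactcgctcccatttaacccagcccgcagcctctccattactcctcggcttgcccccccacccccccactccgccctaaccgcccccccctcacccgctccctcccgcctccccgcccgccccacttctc

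The E-box of PER1 begins 173 bases before the start and that of BHLHE40 begins 245 bases before it. The variant E-box of PER2 begins 197 bases before the start. The promoter table holds 14 starts for the 10 clock genes, and both strands of the same window were searched. CACGTG was found before 3 of these 14 starts (PER1, BHLHE40 and NR1D2) and before 6.34% of all 35116 starts in the table. CACGTT was found before 5 of 14 (PER2, CRY1, CRY2, NR1D1 and CLOCK) and before 4.55% of all starts. Neither form was found in this window before DBP or PER3. The D-box TTATGTAA, the site of DBP and NFIL3, stood before 2 of 14 (PER3 and NR1D2) and before 0.834% of all. AGGTCA stood before 3 of 14 and 12.1% of all starts, and AGAACA before 1 of 14 and 12.4% of all. The palindrome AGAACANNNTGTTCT was found before 0 of 14 and before 1 of all 35116 starts. These are matches of letters in a short window, and AGAACA can also lie inside the palindrome.

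PER2, the other period gene with a cluster of its own, varied little. It read 5.82 and 5.93 with prednisolone and 6.29 and 6.18 with vehicle on the arrays labelled BTG1 shRNA. On the control arrays it read 6.19 and 6.12 with prednisolone, against 6.33 and 6.35 with vehicle. Both prednisolone groups lay below their vehicle groups without overlap, yet neither difference was called. It was -0.36 (SE 0.16, 95% interval -0.74 to 0.02, limma adjusted p = 1.0) on the arrays labelled BTG1 shRNA and -0.19 (SE 0.16, 95% interval -0.57 to 0.19, limma adjusted p = 0.519) on the control arrays.

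PER3 shares its cluster with UTS2, the gene of the peptide urotensin 2, and the values cannot be split between them. The cluster read 4.48 and 4.32 with prednisolone and 4.34 and 4.17 with vehicle on the arrays labelled BTG1 shRNA. It read 5.07 and 5.06 with prednisolone and 5.24 and 5.21 with vehicle on the control arrays. All 4 arrays labelled BTG1 shRNA were below all 4 control arrays. The cluster was lower with BTG1 shRNA in both treatments. The difference was -0.67 (SE 0.17, limma adjusted p = 0.0327) with prednisolone and -0.97 (SE 0.17, limma adjusted p = 0.00743) with vehicle. The vehicle call ended without BTG1 shRNA vehicle array 2 (-0.89, adjusted p = 0.0904). The prednisolone call ended without any 1 of the 4 prednisolone arrays or the 2 vehicle arrays labelled BTG1 shRNA (adjusted p = 0.0745 to 0.184), and with a trended, robust prior (adjusted p = 0.103). Prednisolone differences were 0.15 on the arrays labelled BTG1 shRNA and -0.16 on the control arrays, and neither was called.

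The cryptochromes CRY1 and CRY2 are the partners of PER in repression. CRY1 read 6.98 and 7.30 with prednisolone and 6.74 and 7.49 with vehicle on the arrays labelled BTG1 shRNA. It read 5.99 and 6.47 with prednisolone and 5.87 and 6.30 with vehicle on the control arrays. Every array labelled BTG1 shRNA was above every control array, but replicates within a group lay up to 0.75 apart. The differences between the shRNAs were 0.91 (SE 0.31, limma adjusted p = 0.0922) under prednisolone and 1.03 (SE 0.31, limma adjusted p = 0.0695) under vehicle, and neither passed. Fitting only the prednisolone arrays took the first past the threshold (adjusted p = 0.0482). A filter on low values (adjusted p = 0.0495) or leaving out control vehicle array 2 (difference 1.25, adjusted p = 0.042) took the second past it. CRY1 differed with prednisolone by 0.03 (95% interval -0.70 to 0.75) on the arrays labelled BTG1 shRNA and by 0.14 (95% interval -0.58 to 0.87) on the control arrays. CRY2 had the smallest range of the 10 genes, 0.36 over the 8 arrays, from 6.73 to 7.09. Its 4 groups overlapped one another in all 4 pairwise comparisons, and its differences lay between -0.07 and 0.11.

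NR1D1 encodes REV-ERB alpha, a heme-binding repressor. Its gene overlaps that of the thyroid hormone receptor alpha, THRA, on chromosome 17: in RefSeq (GRCh38.p14) NR1D1 spans 40092793 to 40100589 on the minus strand and THRA 40062193 to 40093867 on the plus strand, which gives 1075 shared bases. The annotation gives 2 clusters and names both genes for each, THRA first for 3720695 and NR1D1 first for 3756046. By the annotation alone neither cluster can be assigned to NR1D1, and the strand of each cluster was not examined. The one with the higher mean, 3720695, read 7.02 and 7.03 with prednisolone and 6.98 and 7.26 with vehicle on the arrays labelled BTG1 shRNA, against 8.23 and 7.94 with prednisolone and 7.19 and 7.32 with vehicle on the control arrays. The other, 3756046, read 7.14 and 7.24 with prednisolone and 7.22 and 7.25 with vehicle on the arrays labelled BTG1 shRNA, against 5.59 and 5.41 with prednisolone and 6.81 and 6.14 with vehicle on the control arrays. On the control prednisolone arrays cluster 3720695 was at its highest and the other at its lowest.

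The clusters of NR1D1 and THRA thus differed in opposite directions in the same comparison. Between the shRNAs under prednisolone, cluster 3720695 was lower, with a difference of -1.06 (SE 0.19, 95% interval -1.51 to -0.62, limma adjusted p = 0.00736). Cluster 3756046 was higher by 1.69 (SE 0.24, 95% interval 1.14 to 2.25, limma adjusted p = 0.00228). With prednisolone in control cells they differed by 0.83 (SE 0.19, adjusted p = 0.102) and -0.98 (SE 0.24, adjusted p = 0.119), without overlap between arrays, and neither was called by limma. Averaged, they differed by 0.31 (adjusted p = 0.376) between the shRNAs under prednisolone and by -0.07 (adjusted p = 0.812) with prednisolone in control cells. The call on cluster 3720695 was lost when control prednisolone array 1 was left out (-0.92, adjusted p = 0.0565), and likewise BTG1 shRNA prednisolone array 1 (-1.06, adjusted p = 0.0511).

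**Figure D2:**
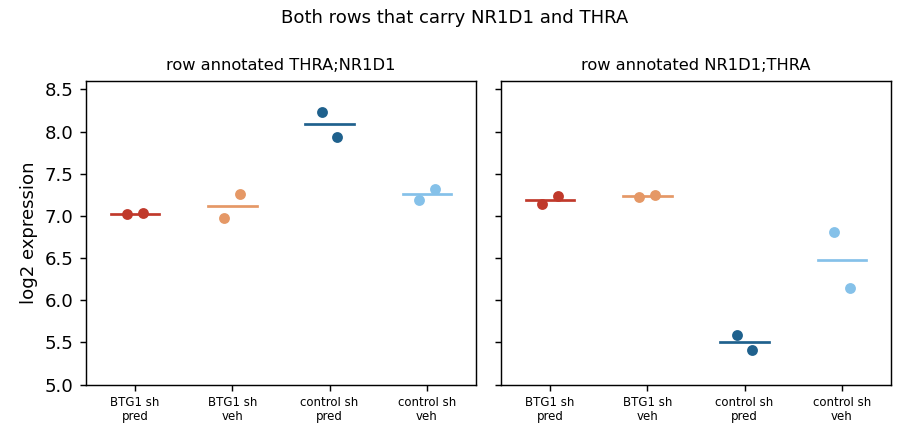
Log2 expression (vertical axis) of both clusters annotated with NR1D1 and THRA on each array, with a bar at the mean of 2 arrays. The left cluster is highest (8.23 and 7.94) and the right one lowest (5.59 and 5.41) on the control prednisolone arrays.

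NR1D2, which encodes REV-ERB beta, had its widest replicate spread among control arrays. It read 7.03 and 7.38 with prednisolone and 7.42 and 7.24 with vehicle on the arrays labelled BTG1 shRNA. On the control arrays it read 5.95 and 6.70 with prednisolone and 6.04 and 6.89 with vehicle, with the first array of each pair the lower. The differences between the shRNAs were 0.88 (SE 0.35, limma adjusted p = 0.144) under prednisolone and 0.86 (SE 0.35, limma adjusted p = 0.155) under vehicle. Without control vehicle array 2 the difference under vehicle was 1.29 (adjusted p = 0.0327), past the threshold. Prednisolone differences were -0.13 (95% interval -0.93 to 0.68) on the arrays labelled BTG1 shRNA and -0.14 (95% interval -0.95 to 0.67) on the control arrays.

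BHLHE40, also called DEC1, is a repressor that competes for E-boxes. It read 5.41 and 5.33 with prednisolone, against 4.66 and 4.57 with vehicle, on the arrays labelled BTG1 shRNA. It read 4.10 and 3.75 with prednisolone, against 4.42 and 4.0 with vehicle, on the control arrays. The prednisolone arrays labelled BTG1 shRNA were the highest of the 8, and the control groups overlapped. The gene was higher with BTG1 shRNA under prednisolone by 1.45 (SE 0.21, 95% interval 0.95 to 1.95, 2.73-fold, limma adjusted p = 0.00285). Under vehicle the difference was 0.40 (SE 0.21, limma adjusted p = 0.254), and quantile normalization took it to 0.62 (adjusted p = 0.0177). With prednisolone it differed by 0.76 (SE 0.21, unadjusted p = 0.00853, limma adjusted p = 1.0) on the arrays labelled BTG1 shRNA and by -0.29 (SE 0.21, limma adjusted p = 0.493) on the control arrays. On the control arrays it lay at percentile 28.7 to 32.2 of all clusters with prednisolone and at most at 32.1 with vehicle. No detection call comes with the table, so its level above background there is unknown. The size of the called difference is therefore uncertain.

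DBP, an activator at D-boxes that is itself an output of CLOCK and BMAL1, read 7.57 and 7.5 with prednisolone, against 7.39 and 7.28 with vehicle, on the arrays labelled BTG1 shRNA. It read 7.27 and 6.75 with prednisolone, against 7.97 and 7.72 with vehicle, on the control arrays. Prednisolone arrays were above vehicle arrays under BTG1 shRNA and below them under control shRNA, with no overlap in either. The differences were 0.20 (SE 0.22, limma adjusted p = 1.0) and -0.84 (SE 0.22, limma adjusted p = 0.142), and neither was called. CLOCK, the DNA-binding partner of BMAL1, read 4.74 and 5.20 with prednisolone and 5.35 and 5.12 with vehicle on the arrays labelled BTG1 shRNA, against 5.16 and 5.51 with prednisolone and 4.87 and 5.29 with vehicle on the control arrays. Its groups overlapped in all 4 pairwise comparisons, and its differences lay between -0.36 and 0.25.

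Counted over the list, prednisolone gave 0 calls among the 10 clock genes on the arrays labelled BTG1 shRNA, beside 0.0% of all clusters. There, limma called 0 of 17881 clusters and 186 (1.04%) had an unadjusted p below 0.05, BHLHE40 among them. Over 2-fold there were 0 of the 10, beside 0.213% of all clusters. The list's median difference was -0.07 there, against 0.03 over all clusters. On the control arrays the list's median was -0.02, against -0.16 over all clusters. The arrays did not overlap for 4 of 10 genes on the arrays labelled BTG1 shRNA, beside 28.5% of all clusters. For the control arrays this was 5 of 10, beside 41.7% of all clusters. For PER1 and DBP, prednisolone arrays lay on opposite sides of vehicle arrays under BTG1 shRNA and under control shRNA, without overlap, beside 7.03% of all clusters. For the difference of the prednisolone effects 0 of 10 were called by limma, beside 0.134% of all clusters. PER1, NR1D1 by cluster 3720695, BHLHE40 and DBP had unadjusted limma p-values of 0.000101, 0.00978, 0.00951 and 0.0109. Of all clusters, 9.31% had one below 0.05. The difference of the effects was over 2-fold for 3 of 10 (PER1, BHLHE40 and DBP), beside 9.51% of all clusters. The comparisons share arrays, so these values are not independent of each other.

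**Figure D3:**
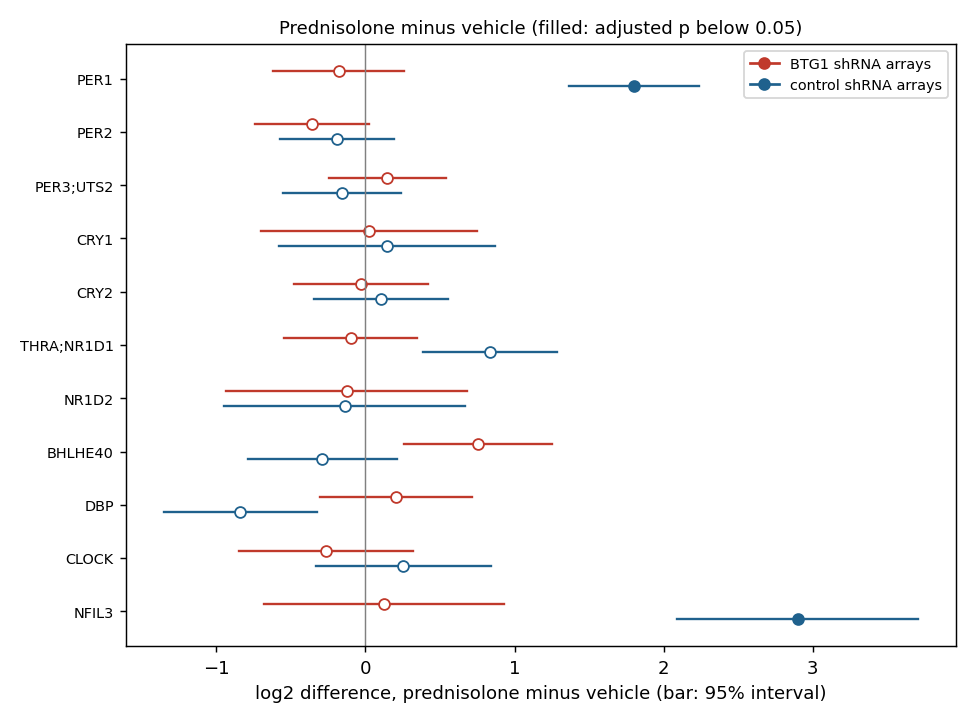
Log2 difference of prednisolone minus vehicle (horizontal axis) with its 95% interval for the 10 clock genes and NFIL3, on the arrays labelled BTG1 shRNA and on the control arrays. Filled points have an adjusted p below 0.05: PER1 (1.80) and NFIL3 (2.90) on the control arrays.

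Between the shRNAs, limma called 4 of the 10 genes under prednisolone beside 17.5% of all clusters, and 1 under vehicle (PER3, lower) beside 14.7% of all clusters. The arrays did not overlap for 8 of 10 under prednisolone, beside 49.9% of all clusters, and for 6 of 10 under vehicle, beside 58.8%. Of the 4 called under prednisolone, BHLHE40 was higher, and PER1, PER3 and cluster 3720695 of THRA and NR1D1 were lower. Cluster 3756046, which also names NR1D1 and THRA, was higher by 1.69 (limma adjusted p = 0.00228), so no direction can be given for NR1D1. PER1 read 5.52 and 5.62 with BTG1 shRNA and prednisolone, against 7.69 and 7.44 with control shRNA and prednisolone, a difference of -1.99 (SE 0.19, limma adjusted p = 0.000306). Under vehicle the PER1 groups overlapped and differed by -0.01 (95% interval -0.45 to 0.42). The list's median difference was -0.17 under prednisolone, beside 0.04 over all clusters, and 0.03 under vehicle, beside -0.15 over all clusters. Scaling moved the median of all clusters: centring each array gave -0.09 in place of 0.04 under prednisolone, and quantile normalization gave -0.04 in place of -0.15 under vehicle. In control cells with prednisolone they gave -0.04 and -0.05 in place of -0.16.

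The other clock genes comprised 26 listed genes, of which 23 had a cluster and 3 were not analysed here. With prednisolone in control cells, limma called 1 of the 23, NFIL3, which was higher, beside 1.52% of all clusters called in either direction. NFIL3 encodes E4BP4, a repressor at D-boxes. It read 7.67 and 8.72 on the control prednisolone arrays, against 5.11 and 5.49 on the control vehicle arrays. It rose by 2.90 (SE 0.35, 95% interval 2.09 to 3.71, limma adjusted p = 0.0104), and this call too ended when only the control arrays were fitted (adjusted p = 0.0641). On the arrays labelled BTG1 shRNA it read 6.15 and 6.25 with prednisolone, against 5.88 and 6.28 with vehicle, and the groups overlapped. The difference of its prednisolone effects was -2.78 (SE 0.49, limma adjusted p = 0.111). On the arrays labelled BTG1 shRNA 0 of the 23 were called with prednisolone, beside 0.0% of all clusters. PER1 and NFIL3 were thus the clock genes called with prednisolone in control cells among the 33 measured.

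Between the shRNAs, limma called 7 of these 23 genes higher and 1 lower under prednisolone, beside 17.5% of all clusters called in either direction. Under vehicle it called 7 higher and 0 lower, beside 14.7%. The genes called higher under prednisolone were BMAL1, BMAL2, NPAS2, RORA, RORB, HLF and GSK3B, the one called lower was NFIL3, and the same 7 were called higher under vehicle. NFIL3 differed by -1.995 (SE 0.35, limma adjusted p = 0.00602) under prednisolone. RORA, an activator of BMAL1 that T cells are known to express, read 6.27 and 6.73 with prednisolone and 6.28 and 6.55 with vehicle on the arrays labelled BTG1 shRNA. On the control arrays it read 3.14 and 3.25 with prednisolone and 3.66 and 3.24 with vehicle, and with vehicle it lay at most at percentile 18.4 of all clusters. The difference was 3.31 (SE 0.24, limma adjusted p = 8.59e-05) under prednisolone and 2.96 (SE 0.24, limma adjusted p = 0.00017) under vehicle. Its level above background on the control arrays is unknown, so the size is uncertain. RORB, a related receptor best known from the nervous system, was higher by 3.05 (SE 0.22, limma adjusted p = 8.05e-05) under prednisolone and 2.85 (SE 0.22, limma adjusted p = 0.000128) under vehicle. RORB lay at percentile 33.0 to 43.2 of all clusters on the control arrays. Its level above background there is also unknown, so these sizes are uncertain.

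NPAS2, a paralogue of CLOCK that can replace it, read 7.01 and 7.54 with prednisolone and 7.31 and 7.05 with vehicle on the arrays labelled BTG1 shRNA, against 4.97 and 4.87 with prednisolone and 5.35 and 5.12 with vehicle on the control arrays. It was higher by 2.36 (SE 0.23, limma adjusted p = 0.000355) under prednisolone and 1.94 (SE 0.23, limma adjusted p = 0.00106) under vehicle. CLOCK itself was not called in either. BMAL1, the partner of both, read 7.01 and 7.45 with prednisolone and 7.05 and 7.71 with vehicle on the arrays labelled BTG1 shRNA, against 5.89 and 5.78 with prednisolone and 4.67 and 5.76 with vehicle on the control arrays. All 4 arrays labelled BTG1 shRNA lay above all 4 control arrays, and the first control vehicle array was the lowest. The difference was 1.39 (SE 0.38, limma adjusted p = 0.044) under prednisolone and 2.17 (SE 0.38, limma adjusted p = 0.00796) under vehicle. The prednisolone call ended after quantile normalization (adjusted p = 0.133), after centring (adjusted p = 0.151) and without any 1 of the 4 prednisolone arrays or the 2 vehicle arrays labelled BTG1 shRNA (adjusted p = 0.0522 to 0.203). The vehicle call ended without BTG1 shRNA vehicle array 2 (difference 1.84, adjusted p = 0.066).

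BMAL2, the paralogue of BMAL1, was higher by 1.51 (SE 0.28, limma adjusted p = 0.00855) under prednisolone and 1.32 (SE 0.28, limma adjusted p = 0.0181) under vehicle. The D-box activator HLF was higher by 1.20 (SE 0.22, limma adjusted p = 0.00738) under prednisolone and 0.999 (SE 0.22, limma adjusted p = 0.0193) under vehicle. On the control arrays HLF lay at percentile 25.7 to 29.0 of all clusters and BMAL2 at 29.2 to 39.0. Their levels above background there are unknown, so the sizes of these differences are uncertain. GSK3B, a kinase with clock proteins among its many substrates, was higher by 1.80 (SE 0.33, limma adjusted p = 0.00745) under prednisolone and 2.33 (SE 0.33, limma adjusted p = 0.00253) under vehicle. The BMAL2 call under vehicle ended when only vehicle arrays were fitted (adjusted p = 0.063), without the first control vehicle array (adjusted p = 0.0699) and without BTG1 shRNA vehicle array 2 (adjusted p = 0.095). Under prednisolone it ended without BTG1 shRNA prednisolone array 1 (adjusted p = 0.052). The HLF call under vehicle ended in the same fit of vehicle arrays (adjusted p = 0.063) and without either BTG1 shRNA vehicle array (adjusted p = 0.113 and 0.121). Under prednisolone it ended without control prednisolone array 2 (adjusted p = 0.0633) or BTG1 shRNA prednisolone array 1 (adjusted p = 0.0617). The casein kinases CSNK1D and CSNK1E, which phosphorylate PER, were called in no comparison, and neither were the further repressors BHLHE41, CIART and TIMELESS or the outputs WEE1, NAMPT and SIRT1. On the same arrays, limma called 8 of 9 T-cell markers higher under both treatments, all but CD2. It called B-lineage markers lower in 7 of 8 under prednisolone, all but BLNK (-0.86, adjusted p = 0.0707), and in 8 of 8 under vehicle. CD2 read 2.83 to 3.02 on the arrays labelled BTG1 shRNA and 2.86 to 3.16 on the control arrays. The part of these markers in the clock gene differences was not tested.

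**Figure D4:**
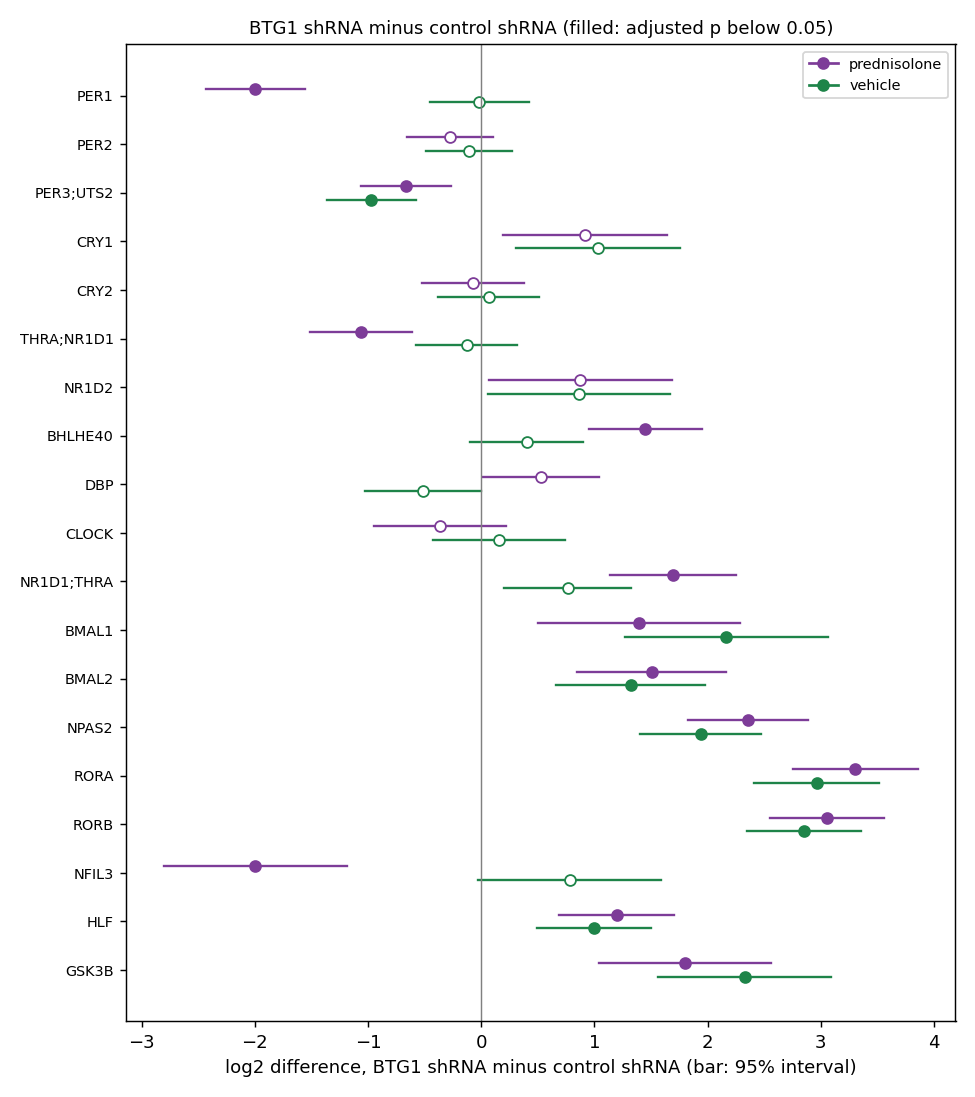
Log2 difference of BTG1 shRNA minus control shRNA (horizontal axis) with its 95% interval under prednisolone and under vehicle. Filled points have an adjusted p below 0.05. The activators BMAL1, BMAL2 and NPAS2 and the receptors RORA and RORB lie between 1.32 and 3.31 under both treatments, and PER1 lies at -1.99 under prednisolone and -0.01 under vehicle.

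The pattern of PER1 over the 8 arrays was set against 7455 clusters with 1 symbol and a range of at least 1, by the Euclidean distance between profiles centred on their own means. The nearest were AHDC1 (distance 0.39), PLXNA1 (distance 0.52), a receptor for semaphorins, and TCP11L2 (distance 0.59). AHDC1 read 9.53 and 9.47 with prednisolone, against 7.94 and 7.71 with vehicle, on the control arrays. On the arrays labelled BTG1 shRNA it read 7.51 and 7.42 with prednisolone, against 7.62 and 7.42 with vehicle. Like PER1, each stood high on the control prednisolone arrays alone, which follows from their choice by distance to PER1 over the same arrays. In control cells the differences were 1.67 for AHDC1, 1.52 for PLXNA1 and 1.85 for TCP11L2, and on the arrays labelled BTG1 shRNA -0.05, 0.12 and 0.17.

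**Figure D5:**
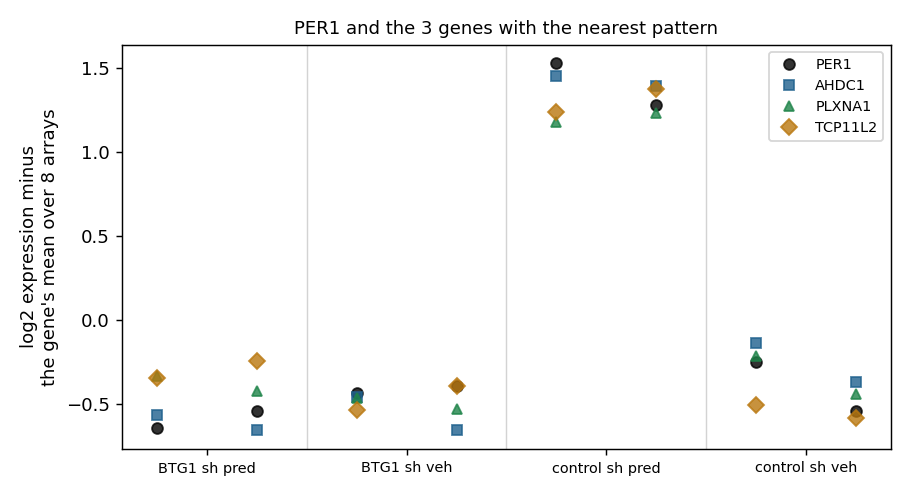
Log2 expression minus the gene's mean over the 8 arrays (vertical axis) for PER1, AHDC1, PLXNA1 and TCP11L2, 1 point per gene and array, arrays grouped by shRNA and treatment. All 4 genes stand highest on the control prednisolone arrays, and AHDC1, PLXNA1 and TCP11L2 were chosen for their small distance to PER1.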

How the data were processed

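Per the labels, 8 Affymetrix Human Exon arrays were summarised with hg18 core meta-probe set files. The submitters' processing notes name RMA and Partek without versions. The authors deposited 1 log2 value per transcript cluster and array, with most decimal points lost, so the deposited numbers are other than log2 values as they stand. Of 143048 values 153 kept theirs. Elsewhere a point was restored behind digit 1, or behind digit 2 for values starting with 1. Correlations between arrays were then 0.872 to 0.995. The tests planned for log2 values were kept. No filter on low values was applied, and the small number of arrays limits precision.

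Limma 3.58.1 in R 4.3.3 (lmFit, eBayes) was fitted with 4 group means to all 8 arrays, and 5 contrasts were adjusted by Benjamini-Hochberg over 17881 clusters (threshold 0.05). The script was tested on simulated data. Alternatives were quantile normalization, centring, a filter on low values, other variance priors, a replicate block, fits to the compared arrays, other cluster choices and leaving out each array. Named were all 10 members, the other clock genes where called (up to 6 per contrast by p were planned; all 7 or 8 are named, those beyond 6 after their values were seen), and the 3 clusters nearest to each member called with prednisolone. ARNTL and ARNTL2 are annotated BMAL1 and BMAL2, and FBXL21 as FBXL21P. The members and lists were chosen with earlier results of these data known. Of the planned marker lists, 5 myeloid markers averaged 4.02 to 4.95 and 4 erythroid and platelet markers 3.38 to 3.99 over all arrays. The other chosen genes of glucocorticoid action, TSC22D3 and the cluster of FKBP5 and LOC285847, rose by 2.67 and 2.70 with prednisolone in control cells and differed by 0.99 and 0.34 (limma adjusted p = 1.0 each) on the arrays labelled BTG1 shRNA.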

Additional observations from a re-analysis of the deposited data

Results flagged for a closer look

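PER1 and DBP stand out because every array moved one way with prednisolone under BTG1 shRNA and the opposite way under control shRNA, which 7.03% of all clusters also did. For PER1, the prednisolone effect under BTG1 shRNA minus that under control shRNA was -1.98 (SE 0.27, limma adjusted p = 0.066). For DBP it was 1.04 (SE 0.31, limma adjusted p = 0.408). The difference itself was therefore tested and passed the threshold for neither gene.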

How the results depend on the processing

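With 10 members and 2 arrays a group, 1 array can decide a count. The number of clock genes called with prednisolone in control cells was 1, and 0 when only the control arrays were fitted. Between the shRNAs under prednisolone it was 4, and 2 after the filter on low values, which kept 7 of the 10. Under vehicle it was 1, and 2 after quantile normalization. For the difference of effects it was 0, with 1 after centring and 3 over 2-fold without a test. Leaving out 1 array gave 0 to 1 with prednisolone in control cells (0 without control prednisolone array 2). Between the shRNAs it gave 2 to 4 under prednisolone (2 without array 1 of either prednisolone group) and 0 to 3 under vehicle (0 without BTG1 shRNA vehicle array 2, 3 without control vehicle array 2). The cause of these changes was not tested. Over all clusters, 271 were called with prednisolone in control cells and 16 when only those arrays were fitted. For the difference of effects 24 were called, 14 after centring, 39 with the trended, robust prior and 36 after quantile normalization. Leaving out 1 array gave 40 to 770 calls with prednisolone in control cells, 1746 to 3891 between the shRNAs under prednisolone, 1289 to 5958 under vehicle and 0 to 24 for the difference. The lowest came without control prednisolone array 2 in the first and second and without BTG1 shRNA vehicle array 2 in the third, and 770 and 5958 came without control vehicle array 2. For the difference, 0 were called without control prednisolone array 2 and without each of the 4 BTG1 shRNA arrays.

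The replicate number as a block gave 2 members called with prednisolone in control cells (DBP also passed, adjusted p = 0.0438), 6 between the shRNAs under prednisolone, 3 under vehicle and 1 for the difference of effects (PER1, adjusted p = 0.0317). The members gained between the shRNAs were CRY1 (adjusted p = 0.00654 under prednisolone and 0.00452 under vehicle) and NR1D2 (adjusted p = 0.0474 and 0.0482). For NFIL3 the difference of effects also passed (adjusted p = 0.0317). Over all clusters the block raised the calls to 755 (271 without it) with prednisolone in control cells, to 4321 (3134) and 4553 (2623) between the shRNAs under prednisolone and vehicle, and to 96 (24) for the difference. Deviations of same-numbered arrays correlated at 0.0072 to 0.59, and nothing in the labels ties a number to a shared culture or day.

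Signs turned as follows. For NR1D1 the other cluster gave -0.98 with prednisolone in control cells, 1.69 and 0.76 between the shRNAs under prednisolone and vehicle, and 0.93 for the difference of effects. This alternative was chosen after seeing the data. The mean of both clusters gave -0.070, 0.31 and 0.32 for the first 3. Centring gave -0.021 for CRY1 with prednisolone under BTG1 shRNA, 0.031 for PER1 between the shRNAs under vehicle and -0.16 for NR1D2 in the difference of effects. Quantile normalization gave for CRY2 0.034 with prednisolone under BTG1 shRNA, -0.11 between the shRNAs under vehicle and 0.030 for the difference of effects. Apart from the other NR1D1 cluster and the mean of both under prednisolone between the shRNAs, these turns concern differences that were not called. Leaving out 1 array gave these ranges across 0. With prednisolone in control cells they were -0.10 to 0.38 for CRY1, -0.071 to 0.28 for CRY2 and -0.56 to 0.28 for NR1D2. Under BTG1 shRNA they were -0.35 to 0.40 for CRY1, -0.12 to 0.055 for CRY2, -0.24 to 0.039 for NR1D1, -0.30 to 0.052 for NR1D2 and -0.079 to 0.32 for NFIL3. Between the shRNAs under vehicle they were -0.16 to 0.13 for PER1, -0.013 to 0.14 for CRY2, -0.27 to 0.01 for NR1D1 and -0.055 to 0.36 for CLOCK, and under prednisolone -0.25 to 0.11 for CRY2. For the difference of effects they were -0.49 to 0.26 for CRY1, -0.31 to 0.039 for CRY2 and -0.41 to 0.44 for NR1D2.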
